A study of Homo sapiens with 45 samples.

Results

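The cholinergic genes CHAT, SLC18A3, SLC5A7 and ACHE encode the proteins that make acetylcholine, load it into vesicles, recover its choline and break it down. They were taken from a list of names, matched through GENCODE symbols, and are 4 of the 58233 genes in the human tables, followed here over all 15 sampled days. All 4 passed the filter on low counts, which left 19436 genes. The cells derive from the H9 line of human embryonic stem cells. From day -3 to day -1 all of them were grown with CHIR99021 (3 µM, an activator of Wnt signalling), bFGF (5 ng/ml), SB431542 (10 µM) and DMH1 (2 µM), inhibitors of TGF-beta family signalling, which gave neuromesodermal progenitors. On day 0, 175000 dissociated cells were replated per 35 mm dish with 100 nM RA (retinoic acid, a signal of spinal and hindbrain patterning) and 500 nM SAG (a Smoothened agonist that switches on Hedgehog signalling). A ROCK inhibitor (10 µM) was present for 48 h after each plating, and medium was changed on alternate days. Days 1, 2 and 4 to 15 are labelled as treated with RA and SAG and day 0 as control, with 3 libraries per day and 45 in all, so time, treatment and replating cannot be told apart in any comparison with day 0.

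Acetylcholine is the transmitter that motor neurons release onto muscle. CHAT (choline acetyltransferase) makes it from choline and acetyl-CoA, and the vesicular transporter encoded by SLC18A3 loads it into synaptic vesicles. After release ACHE (acetylcholinesterase) splits it in the cleft, and the high-affinity choline transporter encoded by SLC5A7 returns the choline to the terminal. SLC18A3 lies inside the CHAT gene, an arrangement known as the cholinergic gene locus.

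In GENCODE release 29 on GRCh38, CHAT (ENSG00000070748) covers chromosome 10 from 49609095 to 49665104 on the plus strand and has 12 transcripts. SLC18A3 (ENSG00000187714) is a single exon from 49610301 to 49612720 on the same strand. It sits in the first intron of the 1 CHAT transcript that spans it, and it overlaps 0 annotated CHAT exons. SLC5A7 (ENSG00000115665) lies on chromosome 2 from 107986523 to 108013994 on the plus strand and has 2 transcripts, of 2032 and 5152 nt. ACHE (ENSG00000087085) lies on chromosome 7 from 100889994 to 100896974 on the minus strand and has 13 transcripts. The sources used here do not give the counting strand. With no CHAT exon there in this release, unspliced CHAT reads inside the SLC18A3 exon could count for SLC18A3.

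Sequences just upstream of the start sites are shown for the 3 genes that came on from a near-zero level, among them the nested pair CHAT and SLC18A3. They come from RefSeq on GRCh38.p14, run 5′ to 3′ on the plus strand and end where the annotated exon begins. The CHAT window shown is chr10:49608845-49609094, at the 5′ end of the gene and 1 of 3 for CHAT. The SLC18A3 window is chr10:49610060-49610300 and the SLC5A7 window is chr2:107986274-107986522. Capitals mark 3 motifs on either strand. The first is the TATA box, searched as TATAAA. The second is the Sp1-type GC box, searched as GGGCGG. The third is the core of the cyclic AMP response element, searched as TGACG.
CHAT: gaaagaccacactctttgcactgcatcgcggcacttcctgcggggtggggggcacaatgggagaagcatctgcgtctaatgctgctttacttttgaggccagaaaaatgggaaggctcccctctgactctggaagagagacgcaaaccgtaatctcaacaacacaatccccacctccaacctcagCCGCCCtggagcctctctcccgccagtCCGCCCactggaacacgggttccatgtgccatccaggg
SLC18A3: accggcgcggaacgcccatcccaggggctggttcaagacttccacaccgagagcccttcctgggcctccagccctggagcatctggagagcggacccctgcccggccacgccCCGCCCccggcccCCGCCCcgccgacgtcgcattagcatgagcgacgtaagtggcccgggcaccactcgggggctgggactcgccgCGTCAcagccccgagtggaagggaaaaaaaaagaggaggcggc
SLC5A7: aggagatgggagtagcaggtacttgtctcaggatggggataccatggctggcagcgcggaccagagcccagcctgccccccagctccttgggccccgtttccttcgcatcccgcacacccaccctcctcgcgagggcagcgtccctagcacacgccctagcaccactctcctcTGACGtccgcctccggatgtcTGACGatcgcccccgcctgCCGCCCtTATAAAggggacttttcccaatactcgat
SLC5A7 held 1 TATA box, close to its start, with 1 GC box and 2 response element cores. SLC18A3 held 2 GC boxes and 1 response element core. CHAT held 2 GC boxes and 0 matches to the other motifs in capitals, and SLC18A3 had 0 matches to the TATA box. Among 35116 promoter windows of about this length over all genes, 10.7% held the TATA box, 42.6% the GC box and 21.2% the response element core. In the same windows the E-box CANNTG, a site for proneural factors, had 2 matches in CHAT, 1 in SLC18A3 and 0 in SLC5A7. The homeodomain core TAAT had 2 matches in CHAT, 1 in SLC18A3 and 0 in SLC5A7. The CHAT windows not shown differed. That at chr10:49612848-49613097 had 2 GC boxes, 0 E-boxes and 0 homeodomain cores. That at chr10:49613787-49614036 had 0 GC boxes, 0 E-boxes and 3 homeodomain cores. Of all windows 61.8% held the E-box and 47.4% the homeodomain core. A match describes letters only, and binding was not measured.

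The libraries held between 22835854 and 39066286 counts, and mitochondrial genes took 1.79% to 5.29% of them. The lowest correlation of log levels between libraries of the same day was 0.9873, and 39 of the 45 libraries were nearest to a library of their own day. The labels call the cells neural progenitors on every day. Summed over 16 pan-neuronal genes, the level was 3140 to 3770 TPM on day 15, against 769 to 794 TPM on day 0, so neuronal RNA was abundant in the late libraries. Replicates are called only bioreps, so p-values here measure the spread between these samples, which may be technical. Levels are given as TPM, which are scaled for gene length and can be compared between genes. Changes are log2 changes ± SE from a fit to the counts with edgeR's quasi-likelihood test, with Benjamini-Hochberg adjustment over the whole table and calls made at an adjusted p under 0.05.

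CHAT, the synthetic enzyme, was close to 0 for the first days and reached a low plateau late. On day 0 its TPM values were 0, 0.05 and 0, on day 1 they were 0, 0.07 and 0, and on day 2 they were 0, 0.04 and 0. On day 4 they were 0.12, 0.25 and 0.16, on day 5 they were 0.3, 0.65 and 0.49, on day 6 they were 0.75, 0.54 and 0.66, and on day 7 they were 1.57, 1.77 and 1.31. All 3 libraries of each day from day 7 on lay above 1 TPM. On day 8 the values were 2.92, 3.71 and 3.13, on day 9 they were 3.38, 4.21 and 4.02, on day 10 they were 5.45, 6.3 and 4.17, and on day 11 they were 4.91, 5.43 and 6.55. On day 12 they were 8.01, 5.79 and 7.13, on day 13 they were 7.21, 6.15 and 7.58, on day 14 they were 6.16, 7.92 and 5.92, and on day 15 they were 5.97, 6.38 and 4.75. From day 10 on the TPM values of neighbouring days overlapped, and CHAT stayed the lowest of the 4 genes on each of these days.

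SLC18A3, the vesicular transporter, was at or near 0 on day 0 and had counts in every library from day 1 on. On day 0 its TPM values were 0, 0 and 0.04, on day 1 they were 0.2, 0.28 and 0.45, and on day 2 they were 0.85, 1.33 and 1.39. On day 4 they were 1.65, 1.48 and 1.51, on day 5 they were 3.69, 3.11 and 2.63, on day 6 they were 5.82, 4.6 and 5.06, and on day 7 they were 10.8, 11.2 and 9.79. From day 0 to day 2 the libraries of successive days did not overlap. On day 8 they were 23.3, 19.1 and 23.6, on day 9 they were 25.7, 27.8 and 33.6, on day 10 they were 33.6, 32.9 and 22.2, and on day 11 they were 31.4, 31.6 and 40.4. On day 12 they were 38, 29 and 37.6, on day 13 they were 42.6, 36.9 and 42.1, on day 14 they were 36.6, 37.5 and 37.4, and on day 15 they were 35.1, 36.4 and 27.5. SLC18A3 had the highest mean TPM of the 4 genes on each day from day 8 to day 15.

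SLC5A7, the choline transporter, was the slowest to reach its late level. Its TPM values were 0, 0 and 0.02 on day 0 and 0.02, 0 and 0 on day 1. Day 2 had 0 counts in its 3 libraries, which allows up to 3 counts over the day, or 0.034 CPM (counts scaled to the library size). On day 4 the TPM values were 0.11, 0.07 and 0.07, on day 5 they were 0.44, 0.18 and 0.51, on day 6 they were 1.12, 1.34 and 1.12, and on day 7 they were 2.48, 1.62 and 2.74. Every library from day 4 on had counts, and each lay above 1 TPM from day 6 on. On day 8 they were 3.91, 3.52 and 4.4, on day 9 they were 5.59, 4.87 and 5.42, on day 10 they were 13.3, 12.4 and 11.6, and on day 11 they were 12.9, 11.9 and 13.4. On day 12 they were 20.5, 18.1 and 25.4, on day 13 they were 19, 15 and 22.1, on day 14 they were 18.9, 21.9 and 21, and on day 15 they were 21.5, 16.2 and 16.9. After day 9 the libraries of successive days were apart at 2 steps, day 10 and day 12, and overlapped at the others.

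ACHE, the degrading enzyme, differed from the other 3 in being present on day 0. Its TPM values were 0.94, 1.31 and 0.85 on day 0, 0.45, 0.32 and 0.39 on day 1, and 0.4, 0.23 and 0.24 on day 2. On day 4 they were 1.43, 1.61 and 1.46, on day 5 they were 2.31, 3.01 and 2.43, on day 6 they were 3.91, 2.67 and 4.19, and on day 7 they were 6.6, 6.53 and 5.09. The libraries of days 1 and 2 lay below all of day 0. On day 8 the values were 10.6, 10.5 and 12.7, on day 9 they were 7.75, 7.98 and 8.71, on day 10 they were 13.7, 12.1 and 9.67, and on day 11 they were 10.7, 8.76 and 8.92. On day 12 they were 13.1, 9.85 and 13.1, on day 13 they were 11.1, 8.53 and 14.5, on day 14 they were 11.1, 12.7 and 10.9, and on day 15 they were 11.5, 10.8 and 11.4. From day 8 on ACHE moved between 7.75 and 14.5 TPM and no later day lay wholly above day 8, while day 9 lay wholly below it.

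**Figure D1:**
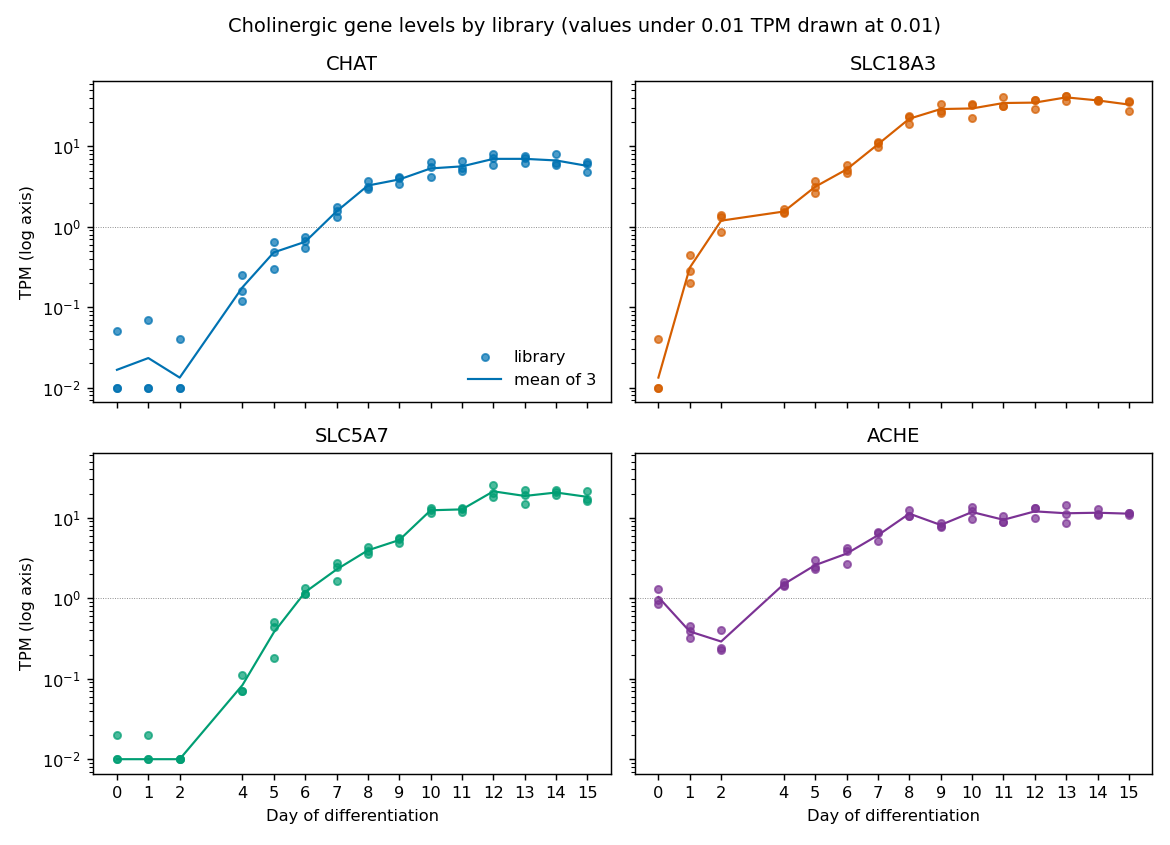
Level of each cholinergic gene in every library, in TPM on a log axis, against the day of differentiation. Points are libraries, with values under 0.01 TPM drawn at 0.01, and the line joins the mean of the 3 libraries per day; CHAT, SLC18A3 and SLC5A7 start near 0, while ACHE starts at 1.03 TPM.

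Set against its own highest day, each gene had its own timetable. On day 8 ACHE stood at 93.7% of its highest daily mean TPM, SLC18A3 at 54.3%, CHAT at 46.6% and SLC5A7 at 18.5%. All 3 libraries first reached 50% of that level on day 8 for ACHE, day 9 for SLC18A3, and day 10 for CHAT and SLC5A7. The highest mean fell on day 13 for CHAT and SLC18A3 and on day 12 for SLC5A7 and ACHE, but the libraries of days 12 to 14 overlapped for each gene. By CPM the highest ACHE day was another one, so its place within the plateau is not fixed by these data.

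**Figure D2:**
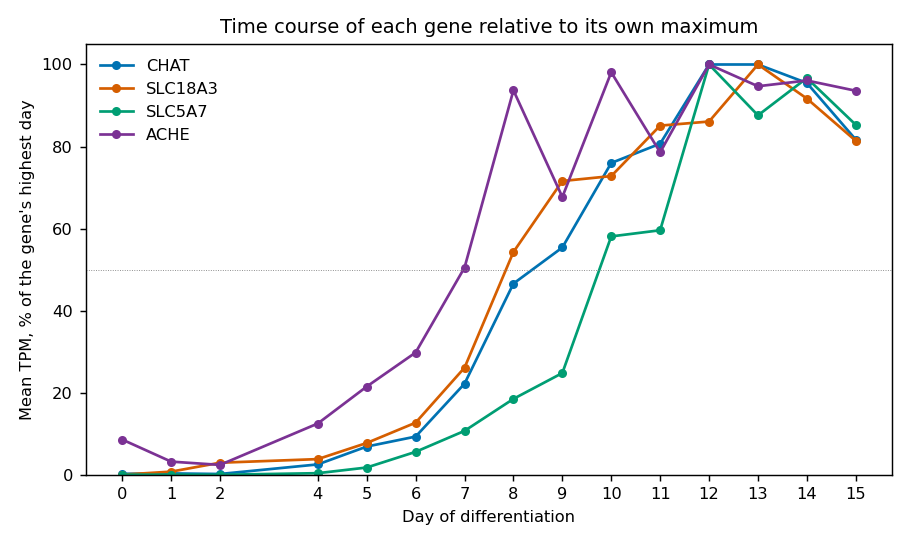
Mean TPM of each gene per day as a percentage of that gene's highest daily mean, against day, with lines for the 4 genes. ACHE is at 93.7% on day 8 and SLC5A7 at 18.5%, and from day 12 to day 14 all 4 lie between 86.1% and 100%.

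The climb after day 4 was taken as day 8 against day 4. Of 10 motor neuron factors tested, 8 had already risen on day 4 against day 2 (median 2.24), where 19.5% of all genes tested rose. On day 8 against day 4 all 4 cholinergic genes rose, where 53.2% of all genes tested were called and 27.1% rose. SLC5A7 rose by 4.91 ± 0.33 (adjusted p = 2.2e-14) and CHAT by 4.69 ± 0.32 (adjusted p = 1.7e-15). SLC18A3 rose by 3.70 ± 0.18 (adjusted p = 3.7e-18) and ACHE by 2.93 ± 0.16 (adjusted p = 5.2e-18), and for each gene the 3 libraries of day 8 lay above all 3 of day 4. Between 0.458% of genes, for SLC5A7, and 2.07%, for ACHE, had a larger one, and 3.97% of all genes tested rose at least 4-fold, as all 4 did. In bulk RNA such as this, a change in the number of cells of a type and a change in RNA per cell cannot be told apart.

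The late stage, day 15 against day 8, split the group. SLC5A7 rose by 2.31 ± 0.17 (adjusted p = 1.3e-13) to 35.8 ± 3.2 CPM on day 15, against 7.21 ± 0.59 CPM on day 8 (SD, n = 3 each). CHAT rose by 0.85 ± 0.18 (adjusted p = 8.5e-05) and SLC18A3 by 0.49 ± 0.14 (adjusted p = 0.0025), while ACHE had a log2 change of -0.24 ± 0.13 (adjusted p = 0.12). So 3 of 4 rose and 0 fell, where 50.7% of all genes tested were called and 24.9% rose. The SLC18A3 call rests on replicate 2: without the libraries of that number the change was 0.32 with an adjusted p of 0.18. A larger change than that of SLC5A7 was found in 2.85% of genes, than that of CHAT in 11%, and than that of SLC18A3 in 18.8%.

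Against day 0, all 4 genes were higher on day 15, where 76.5% of genes tested were called and 40.3% rose. With 1 CHAT count on day 0 and 701 on day 15, the ratio was 606 with a 95% counting interval of 108 to 24000. SLC18A3 had 4628 counts on day 15 and 2 on day 0, a ratio of 2000 (554 to 16500), and SLC5A7 had 4038 and 1, a ratio of 3490 (626 to 138000). ACHE rose by 2.97 ± 0.16 (adjusted p = 2.9e-19). The intervals cover counting error only and overlap among the 3 genes. Over all 15 days each of the 4 differed between days, with adjusted p from 4.2e-29 to 2e-27, but so did 91.5% of all genes tested.

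Each day was then set against the sampled day before it, which gives 14 steps per gene and 56 in all. The 4 genes were called in 25 of them, 23 higher and 2 lower, where 15.7% of all genes and steps were called, 7.97% higher and 7.72% lower. CHAT rose in 4 steps, SLC18A3 in 7, SLC5A7 in 7 and ACHE in 5, and ACHE made both falls. Without replicate 1 the number of calls was 12, so single steps are less firm than the stage comparisons.

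The first steps belonged to SLC18A3. On day 1 it had 38 counts, against 2 on day 0, a ratio of 22.3 with a 95% interval of 5.77 to 191 (edgeR adjusted p = 0.00017). On day 2 it rose again by 1.90 ± 0.37 against day 1 (adjusted p = 0.00016). On day 1 ACHE fell by 1.22 on the log2 scale (SE 0.25, adjusted p = 5.5e-05), so 1 of the 4 rose and 1 fell where 30.1% of genes rose and 31.7% fell. On day 2, 1 of 4 rose where 11.4% of all genes did. CHAT had 3 counts on day 1 and 1 on day 2, so the early rise of SLC18A3 was not shared by the gene around it at this depth.

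**Figure D3:**
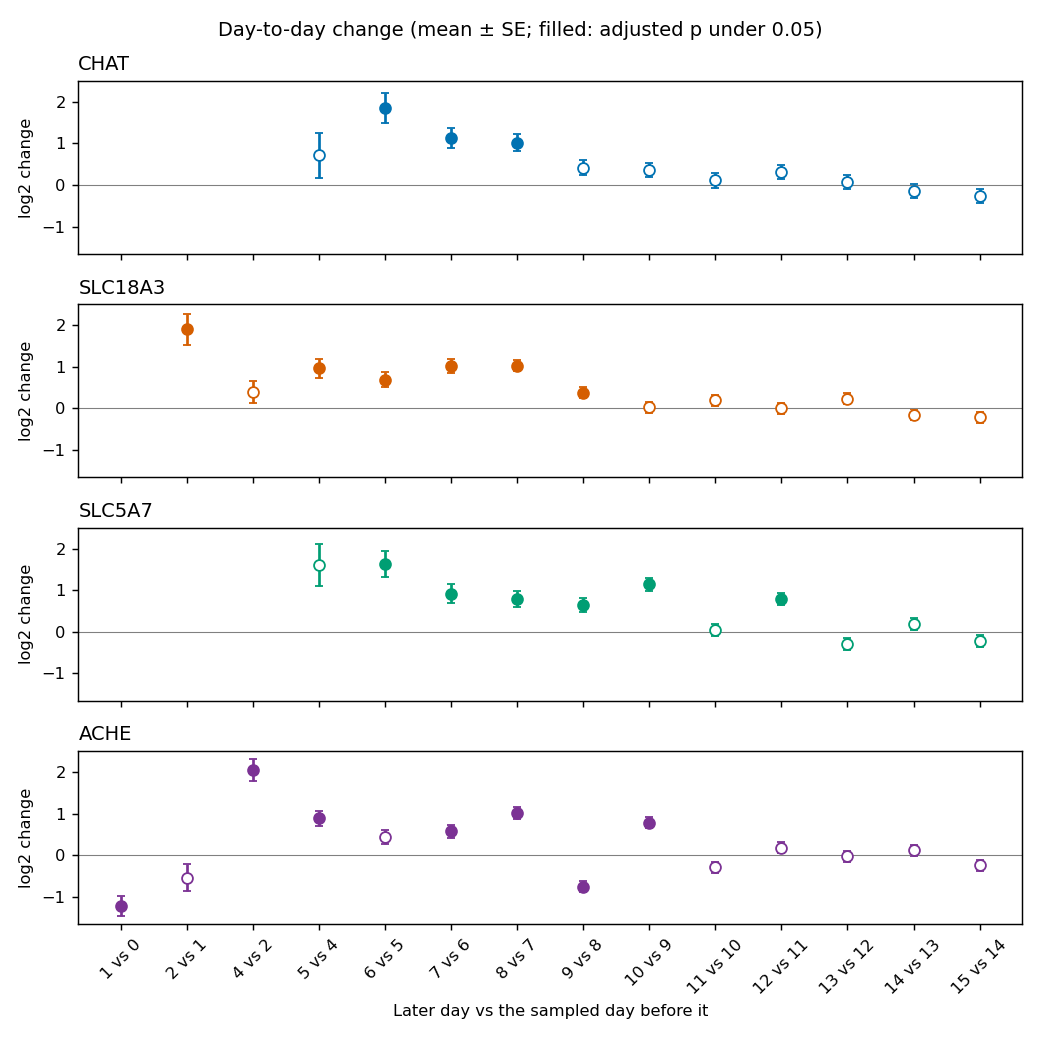
Log2 change of each gene in each day against the sampled day before it, from the edgeR fit, with bars of 1 SE; filled points passed the test, and steps with 0 to 3 counts on a day are not drawn. SLC18A3 rises on day 2, ACHE falls on days 1 and 9, and none of the drawn steps after day 12 passed.

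On day 4 against day 2 the other 3 genes rose, 3 of 4 where 19.5% of genes did. CHAT had 11 counts on day 4 and 1 on day 2, a ratio of 10.9 (1.59 to 470). SLC5A7 had 20 counts on day 4 and 0 on day 2, at least 6.61-fold higher when the empty day is set to 3 counts in all. ACHE rose by 2.04 ± 0.27 (adjusted p = 6.8e-08), while SLC18A3 had a change of 0.39 ± 0.26 (adjusted p = 0.27). Between days 4 and 8 the genes climbed together. SLC18A3 and ACHE rose on day 5 against day 4, 2 of 4 where 3.95% of genes rose, and CHAT, SLC18A3 and SLC5A7 on day 6 against day 5, 3 of 4 where 5.27% did. All 4 rose on day 7 against day 6 and again on day 8 against day 7, where 3.43% and 5.19% of genes rose. Their day 8 steps were 1.02 ± 0.20 for CHAT, 1.03 ± 0.14 for SLC18A3, 0.78 ± 0.19 for SLC5A7 and 1.02 ± 0.14 for ACHE.

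The paths parted at day 9. Against day 8, ACHE fell by 0.76 on the log2 scale (SE 0.13, adjusted p = 6e-05) while SLC5A7 rose by 0.65 ± 0.17 (adjusted p = 0.0064) and SLC18A3 by 0.38 ± 0.14 (adjusted p = 0.039), so 2 of 4 rose and 1 fell where 10.5% of genes rose and 11% fell. The SLC18A3 call was lost in 6 of the alternatives, with adjusted p from 0.055 to 0.28, and the SLC5A7 call in 3, with adjusted p from 0.054 to 0.24. By limma on log2(TPM + 0.1) the ACHE change was -0.46 with an adjusted p of 0.092, and that call was lost. On day 10 against day 9 SLC5A7 rose by 1.14 ± 0.16 (adjusted p = 1.8e-06) and ACHE by 0.78 ± 0.13 (adjusted p = 1.7e-05), 2 of 4 where 15.9% of genes rose. CHAT, at 0.36 ± 0.17 (adjusted p = 0.12), and SLC18A3, at 0.03 ± 0.13 (adjusted p = 0.89), did not pass. SLC5A7 alone rose on day 12 against day 11, by 0.79 ± 0.15 (adjusted p = 0.0018), 1 of 4 where 2.2% of genes rose. That call was lost without replicate 1 (adjusted p = 0.14), without replicate 3 (0.079) and by limma on log2(TPM + 0.1) (0.054). In the steps of days 11, 13, 14 and 15 edgeR called 0 of 16 tests and DESeq2 called 0, with an unadjusted p under 0.05 in 1. In edgeR 5.55%, 3.52%, 0.314% and 4.05% of genes were called in those 4 steps.

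Medium was changed on alternate days, though the labels do not say which. Odd days 11 and 13 were set against even days 10, 12 and 14, and 0 of the 4 genes were called by edgeR and 0 by DESeq2, where 6.46% of all genes were called by edgeR. SLC5A7, at -0.23 ± 0.10 (adjusted p = 0.16), and ACHE, at -0.17 ± 0.08 (adjusted p = 0.23), were the 2 with an unadjusted p under 0.05. SLC5A7 had 31 ± 7.1 CPM on odd days (n = 6) and 37 ± 11 CPM on even days (n = 9), and the libraries overlapped.

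The proportions among the genes shifted. The SLC5A7 to CHAT ratio of TPM was 3.23 ± 0.6 on day 15, against 1.23 ± 0.25 on day 8 (SD, n = 3 each), a log2 difference of 1.40 ± 0.24. Earlier it had differed in the other direction, at 1.23 ± 0.25 on day 8, against 1.89 ± 0.52 on day 6 (-0.61 ± 0.28). The SLC18A3 to SLC5A7 ratio was 1.84 ± 0.35 on day 15, against 5.59 ± 0.32 on day 8, a log2 difference of -1.62 ± 0.16, and on day 8 it had been above the 4.38 ± 0.89 of day 6 (0.37 ± 0.18). In these comparisons, the libraries of the days did not overlap, and the exact two-sided permutation p of 0.1 is the smallest that 3 against 3 can give. The SLC18A3 to CHAT ratio, at 5.79 ± 0.091 on day 15 and 6.89 ± 1.5 on day 8, had a log2 difference of -0.23 ± 0.20 (exact permutation p = 0.4). Its daily mean lay between 5.01 and 7.52 from day 8 to day 15, and the libraries of days 15 and 8 overlapped.

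Within a day the nested genes also moved together. Over the 24 libraries of days 8 to 15, deviations of CHAT from the day's mean correlated with those of SLC18A3 at r = 0.85, while the other 5 pairs lay between 0.29 and 0.52. Libraries share depth and neuronal content, and unspliced CHAT reads could count for SLC18A3, so these are descriptions. Day 10 replicate 3, for example, was lowest of its day for CHAT (4.17 TPM), SLC18A3 (22.2 TPM), SLC5A7 (11.6 TPM) and ACHE (9.67 TPM). It also had the lowest pan-neuronal sum, 2860 TPM beside 3430 and 3960 TPM in replicates 1 and 2. By CPM, SLC5A7 was near equal in replicates 2 and 3 of that day, at 24.1 and 24. Day 15 replicate 3 also had the lowest sum of its day, 3140 TPM. It was lowest for CHAT and SLC18A3 but not for SLC5A7 or ACHE. Per 1000 TPM of pan-neuronal genes, CHAT lay between 1.46 and 1.59 in the 3 libraries of day 10. The other genes stayed wider apart on this scale. SLC18A3 lay between 7.74 and 9.77, SLC5A7 between 3.12 and 4.05 and ACHE between 3.04 and 3.98.

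Scaled in that way, the late rise was larger, but the divisor itself was lower on day 15. The pan-neuronal sum was 3530 ± 340 TPM on day 15 and 4200 ± 230 TPM on day 8. Of its 16 genes 5 rose and 7 fell in the test on counts. TUBB3 went from 1580 ± 96 TPM on day 8 to 1040 ± 140 TPM on day 15, and NCAM1 from 290 ± 20 to 438 ± 62 TPM. The scaled values are ratios to this sum, and levels per neuron were not measured. Per 1000 pan-neuronal TPM, SLC5A7 stood at 5.17 ± 0.78 on day 15 and 0.937 ± 0.054 on day 8. CHAT stood at 1.61 ± 0.09 on day 15 and 0.779 ± 0.14 on day 8, and SLC18A3 at 9.32 ± 0.49 on day 15 and 5.23 ± 0.36 on day 8. ACHE stood at 3.21 ± 0.39 on day 15 and 2.68 ± 0.18 on day 8. For each of the 4 genes the libraries of the days did not overlap. Per TPM of ISL1, a LIM-homeodomain factor of motor neurons, CHAT stood at 1.32 ± 0.27 on day 15 and 0.333 ± 0.074 on day 8, SLC5A7 at 4.34 ± 1.5 on day 15 and 0.399 ± 0.04 on day 8, and ACHE at 2.72 ± 1.1 on day 15 and 1.14 ± 0.15 on day 8 (SD, n = 3 each).

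The factors that specify motor neurons went the other way late. Of 10 motor neuron factors tested, 9 fell and 0 rose on day 15 against day 8, with a median of -1.82 beside 0.00 over all genes. Of all genes tested 50.7% were called in that comparison and 24.9% rose. ISL1 had 5.49 ± 1.7 CPM on day 15, against 12.6 ± 1.1 on day 8 (log2 change -1.20 ± 0.20, adjusted p = 4.4e-06). MNX1, which consolidates motor neuron identity, had 6.95 ± 2.5 CPM on day 15, against 23.8 ± 2.1 on day 8 (-1.78 ± 0.25, adjusted p = 2.1e-07). Among the lowest changes were those of PHOX2A (-4.01 ± 0.37) and ISL2 (-3.62 ± 0.34), and OLIG2, a factor of motor neuron progenitors, had -1.91 ± 0.12. On day 8 against day 4, 8 of the 10 had risen and 1 had fallen (median 1.90), where 53.2% of all genes tested were called and 27.1% rose. The rises were led by ISL2 (6.87 ± 0.49), ISL1 (4.69 ± 0.29), MNX1 (4.40 ± 0.32) and LHX3 (2.43 ± 0.22).

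**Figure D4:**
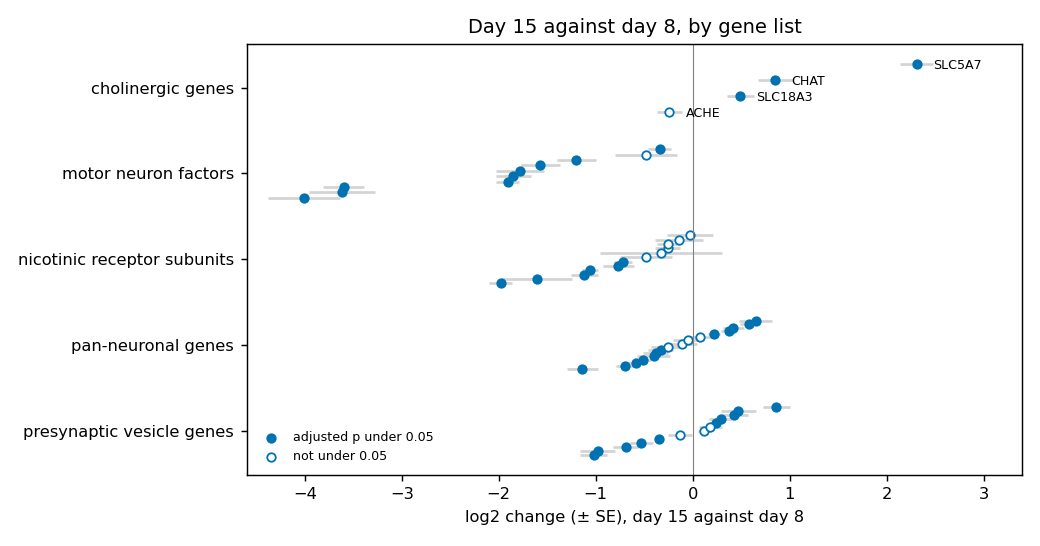
Log2 change of each gene on day 15 against day 8, 1 point per gene, for the cholinergic genes, which are named, and 4 other lists, with bars of 1 SE; filled points passed the edgeR test. SLC5A7, CHAT and SLC18A3 lie right of 0, while 9 of 10 motor neuron factors passed left of it, where 50.7% of all genes tested were called.

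General neuronal and vesicle genes rose early and then gave calls in both directions. On day 8 against day 4, 15 of 16 pan-neuronal genes rose (median 1.60), with GAP43 at 2.36 ± 0.13 and SYN1 at 2.29 ± 0.18, and all 13 presynaptic vesicle genes rose (median 1.14), with RAB3A at 2.87 ± 0.17. All genes tested had a median of 0.00, and 53.2% of them were called and 27.1% rose. On day 15 against day 8, 5 of 16 pan-neuronal genes rose and 7 fell (median -0.18), including ELAVL4 (-1.14 ± 0.16), TUBB3 (-0.70 ± 0.09), RBFOX3 (0.65 ± 0.17) and NCAM1 (0.58 ± 0.09). Of the vesicle genes 5 rose and 5 fell (median 0.12), with SV2C at 0.86 ± 0.14 and CPLX1, a regulator of vesicle fusion, at -1.02 ± 0.14. In this late stage 50.7% of all genes tested were called and 24.9% rose, so calls in both directions were common. The same shares of both stages apply to the counts of the other lists given here.

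The substrates of CHAT are choline and acetyl-CoA, and genes of their supply moved in both directions. Of 12 genes for choline uptake and phosphatidylcholine synthesis, 6 rose and 3 fell on day 15 against day 8 (median 0.17), and 4 rose and 2 fell on day 8 against day 4 (median 0.08). Over all genes tested, 50.7% were called on day 15 against day 8 and 53.2% on day 8 against day 4. PCYT1B, a form of the enzyme that activates phosphocholine, had 40.3 ± 2.3 CPM on day 15, against 9.45 ± 0.58 on day 8 (2.09 ± 0.09, adjusted p = 3.6e-21). Its level on day 15, 21.5 ± 1.5 TPM, was still below the 74.6 ± 1.8 TPM of day 0. The choline transporter-like genes SLC44A3 (1.33 ± 0.18) and SLC44A5 (0.84 ± 0.10) rose late, and CHDH, which oxidises choline, had -0.70 ± 0.12. SLC44A3 had stood higher on day 1, at 57 ± 2.1 TPM against 4.92 ± 0.45 on day 15. SLC44A5 had stood lower, at 0.733 ± 0.14 TPM on day 1 against 24.8 ± 2.4 on day 15. Of 6 genes of acetyl-CoA supply, 1 rose and 5 fell late (median -0.31), and 3 rose and 2 fell early (median 0.10). ACLY, which makes cytosolic acetyl-CoA from citrate, had 575 ± 21 CPM on day 15, against 900 ± 13 on day 8 (-0.64 ± 0.04, adjusted p = 3.3e-17), and ACSS2, which makes it from acetate, had -0.54 ± 0.07 late and 1.42 ± 0.07 early.

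The partners of ACHE separated from each other. COLQ, the collagen tail that anchors the enzyme at the neuromuscular junction, had 7.67 ± 0.71 CPM on day 15, against 2.36 ± 0.13 on day 8 (1.70 ± 0.16, adjusted p = 6.7e-12). BCHE, the related butyrylcholinesterase, had 11.3 ± 1.5 CPM on day 15, against 21.4 ± 2.3 on day 8 (-0.92 ± 0.13, adjusted p = 8e-08), after a rise of 1.90 ± 0.14 on day 8 against day 4. PRIMA1, which anchors ACHE to neuronal membranes, had changes of 0.24 ± 0.15 late (adjusted p = 0.18) and -0.11 ± 0.15 early (adjusted p = 0.56).

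Receptors for acetylcholine are the nicotinic channels and the muscarinic receptors coupled to G proteins. Of 12 nicotinic subunits tested, 8 rose and 0 fell on day 8 against day 4 (median 0.86), and 0 rose and 6 fell on day 15 against day 8 (median -0.60). Among all genes tested 53.2% were called and 27.1% rose early, while 50.7% were called and 24.9% rose late. CHRNA4 had 26.1 ± 1.9 CPM on day 8, against 2.86 ± 0.52 on day 4 (3.17 ± 0.20, adjusted p = 1.5e-15), and CHRNA9 had 5.34 ± 0.8 CPM on day 8, against 0.0728 ± 0.036 on day 4. Late, CHRNB4 had -1.98 ± 0.12, CHRNA3 -1.12 ± 0.14 and CHRNA5 -1.06 ± 0.08, members of 1 gene cluster. Of 3 muscarinic receptors tested, 2 rose on day 15 against day 8 (median 2.84). On day 8 against day 4 CHRM2 (adjusted p = 0.34) and CHRM3 (adjusted p = 0.11) did not pass, and the list median was 0.54. CHRM2 had 3.26 ± 1.5 CPM on day 15, against 0.0399 ± 0.017 on day 8 (adjusted p = 2.9e-13), and CHRM3 had 5.3 ± 1.3, against 0.728 ± 0.24 (2.84 ± 0.25, adjusted p = 2.1e-12).

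Genes often found in cholinergic neurons gave late calls in both directions. Of 9 tested, 6 rose and 1 fell on day 8 against day 4 (median 1.86), and 3 rose and 4 fell on day 15 against day 8 (median -0.81). Over all genes tested 27.1% rose early, and late 50.7% were called and 24.9% rose. SLC10A4, a vesicle protein that marks cholinergic neurons, had 1.45 ± 0.35 CPM on day 15, against 2.78 ± 0.27 on day 8 (-0.94 ± 0.26, adjusted p = 0.0027). The calcitonin gene products CALCA (-3.23 ± 0.37) and CALCB (-2.72 ± 0.29), peptides of motor neurons, fell, and NOS1, nitric oxide synthase, rose by 2.52 ± 0.20. VIP had 21 counts over the day 15 libraries and 1 over those of day 8.

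Markers of other transmitters differed in level. SLC17A6, the glutamate transporter of spinal neurons, had 0.127 ± 0.083 TPM on day 15 and 0.343 ± 0.032 on day 8. GAD1, which makes GABA, had 34.2 ± 7 TPM on day 0, 0.657 ± 0.25 on day 8 and 0.517 ± 0.26 on day 15. Of the 15 genes tested, 9 rose and 3 fell on day 8 against day 4 (median 1.14), and 3 rose and 9 fell on day 15 against day 8 (median -1.07). Over all genes tested, 53.2% were called and 27.1% rose early, while 50.7% were called and 24.9% rose late. DDC, which makes monoamines, had 42.7 ± 18 TPM on day 15, against 1.56 ± 0.13 on day 8 (4.70 ± 0.31), so its mean on day 15 was above that of SLC18A3, 33 ± 4.8 TPM. Also among those that rose late was SLC17A8 (4.48 ± 0.29), a glutamate transporter.

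REST, the repressor of neuronal genes that can act on the cholinergic locus, had 64.5 ± 7.1 CPM on day 15 and 53.5 ± 0.92 on day 8. It rose by 0.27 ± 0.07 late (adjusted p = 0.0015), after -0.48 ± 0.07 on day 8 against day 4 (adjusted p = 3.4e-07). Of its list of 8, 2 rose and 6 fell late (median -0.17), led by RCOR2 (-1.25 ± 0.10), and 3 rose and 3 fell early (median 0.01). Over all genes tested 50.7% were called late and 53.2% early, so calls were common in both stages.

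Other cell types were followed beside these results, and their part in them was not tested. Beside the counts below, 50.7% of all genes were called late and 53.2% early. Of 10 glial markers, 7 rose and 1 fell on day 15 against day 8 (median 1.29), with NFIA at 4.53 ± 0.20 and S100B at 5.19 ± 0.45, and 5 rose and 0 fell on day 8 against day 4 (median 1.09). Their summed level was 299 to 377 TPM on day 15 and 143 to 144 TPM on day 8. Most of the day 15 sum came from FABP7 (147 ± 9.8 TPM) and SLC1A3 (115 ± 32 TPM). On day 8 these stood at 83.3 ± 1.9 and 26.1 ± 3.2 TPM. SOX10 was at 0 on day 15. Of 8 progenitor and cycling markers, 7 fell late (median -0.77) and 8 early (median -0.55), and the sum was 1190 to 1260 TPM on day 15 and 1910 to 1990 TPM on day 8. Of 6 neural crest and sensory markers tested, 1 rose and 5 fell late (median -1.54), and 3 rose and 2 fell early (median 0.68). This list shares ISL1 with the motor neuron factors above, and NEUROG1 (-2.40 ± 0.14) and NEUROG2 (-2.04 ± 0.12) were among its late falls. Its counts are therefore not particular to crest or sensory cells.

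ACHE is also expressed in muscle and blood cells. The summed level of 9 skeletal muscle markers was 183 to 190 TPM on day 0, of which TNNT1 made up 182 ± 3.6, 5.3 to 6.75 TPM on day 8 and 3.67 to 4.97 TPM on day 15. MYOD1 and MYF5, which define muscle precursors, were at 0 TPM in every library of days 0, 4, 8 and 15. The 5 tested muscle markers gave 1 higher and 2 lower calls in each of the stages from day 4 to day 8 and from day 8 to day 15 (medians -0.29 and -0.63). The 9 erythroid and endothelial markers summed to at most 1.37 TPM on any day, and of the 2 tested 0 rose and 1 fell in each stage (medians -1.08 and -1.85). Over all genes tested 53.2% were called in the earlier of these stages and 50.7% in the later.

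The genes with the time course most like each member were found by Pearson's r of log2 CPM over the 45 libraries, among 13311 protein-coding genes with a mean of at least 1 CPM. GRIA2, an AMPA receptor subunit, and NMNAT2, an enzyme of NAD synthesis in axons, came first and second for both CHAT (r = 0.993 and 0.989) and SLC5A7 (r = 0.992 and 0.991). CHAT was followed by SLC5A7 itself (0.986), RPH3A and SST (both 0.985), and SLC5A7 by MRAS, YPEL5 and PALMD (all 0.989). SLC18A3 was most like SLITRK2 and TRIM67 (both 0.993), DACT3 and KCNK3 (both 0.986), and CHGB (0.985). ACHE was most like FAM20C (0.982), GABARAPL1 (0.981), AKR1C2 and AKR1C1 (both 0.980), which are near-identical copies with uncertain read assignment, and HK1 (0.978). All libraries share the day series, so such values are descriptions.

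Among themselves the members ranged from r = 0.857 for SLC18A3 with ACHE to 0.986 for CHAT with SLC5A7 over 45 libraries. Over the 24 libraries of days 8 to 15 CHAT and SLC18A3 still had r = 0.915 and CHAT and SLC5A7 0.892, while the pairs with ACHE lay between 0.134 and 0.309. These values share depth and day, and no test was made of them.

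The counts and the TPM values together give the length over which the authors' software spread each gene's reads, which moves when the transcripts in use change. For SLC18A3, with its single transcript, this effective length stayed at 2320 to 2325 nt on every day from day 2 to day 15. For SLC5A7 it was 3207 ± 118 nt on day 8, 3778 ± 72 nt on day 9 and 3689 ± 243 nt on day 15 (SD, n = 3 each). If the authors used the 2 transcripts of release 29, which the sources used here do not state, the longer one held 40.8% ± 3.8 of SLC5A7 on day 8, 59.1% ± 2.3 on day 9 and 56.3% ± 7.8 on day 15. The libraries of days 15 and 9 lay above all 3 of day 8. For ACHE the length was 1634 ± 48 nt on day 9 and 1997 ± 205 nt on day 8, and the libraries did not overlap, and the day 9 change of ACHE was smaller in TPM than in counts. In limma it was -0.42 on the log2(TPM + 1) scale (adjusted p = 0.04). On day 15 the ACHE length was 1787 ± 104 nt, and its change against day 8 was 0.00 on both TPM scales. CHAT lay between 1877 and 2111 nt on days 6 to 15.

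**Figure D5:**
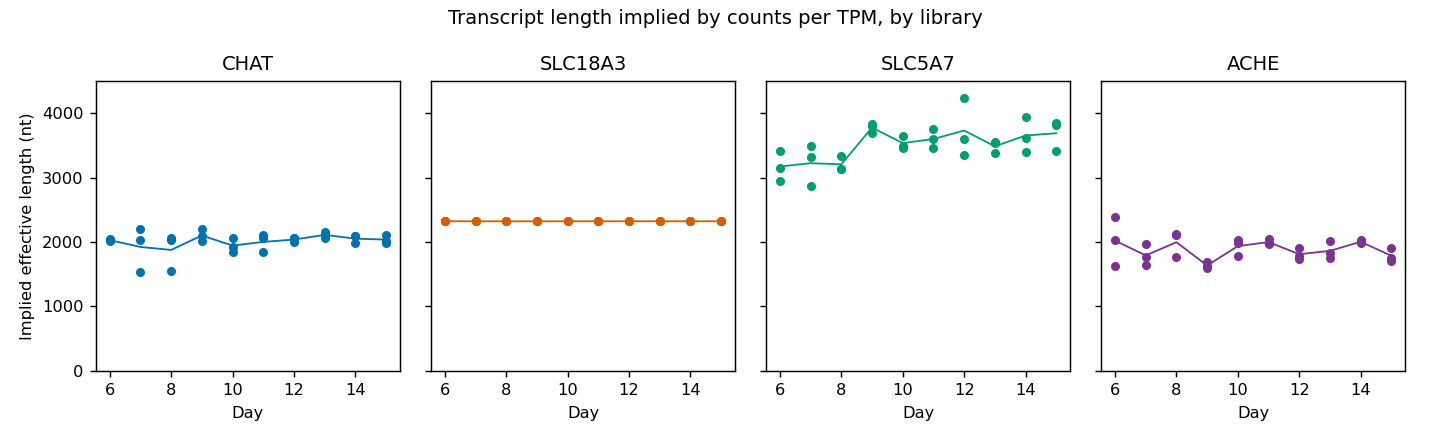
Effective length implied by counts and TPM for each gene, in nt, against day from day 6 to day 15; points are libraries and lines join the daily means. SLC18A3 is flat near 2322 nt, SLC5A7 is higher on day 9 (3778 nt) than on day 8 (3207 nt), and ACHE is lower on day 9 (1634 nt).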

How the data were processed

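Polyadenylated RNA was sequenced from H9-derived cells on 15 days, and the submitters' processing notes name bcl2fastq 2.20.0, RSEM and the build GRCh38. The RSEM version, aligner, annotation release and counting strand were not given in the sources used here. The deposited expected counts are the authors' RSEM estimates, 92.5% of them whole, and were rounded here. TPM, also deposited, had been scaled by the authors for length and library total. Symbols come from GENCODE release 29, which matched 57895 of 58233 identifiers.

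The count model was that of edgeR 4.0.16 under R 4.3.3 (TMM scaling, default filter, robust quasi-likelihood, day as factor, 45 libraries, 30 residual degrees of freedom). Adjusted p-values use Benjamini-Hochberg over 19436 genes, called under 0.05. With 0 counts in a day, the fold is a bound against 3 counts; with 1 to 3 counts, a ratio with a 95% interval is given. Genes named are the 4 members, up to 4 called genes per list with the largest change in each stage (more in short lists, or beside a result), and the 5 protein-coding genes most like each member (prior count 2). Results for some genes of the lists are left out here. Members and all lists were chosen with earlier results of these data known. Alternatives were DESeq2 1.42.0, its size factors, no count filter, limma 3.58.1 on log2(TPM + 1) and log2(TPM + 0.1), a replicate term, and libraries left out. The fits were tested on simulated data with 200 changed genes. Effective length is the value that turns counts into TPM, set by genes with a single transcript.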

Additional observations from a re-analysis of the deposited data

How the results depend on the processing

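Of the values for the 4 genes, the stage comparisons of day 8 with day 4 and day 15 with day 0 kept direction and call under every alternative run. On day 15 against day 8, ACHE, which had not passed, had a change of 0.00 in both limma fits to TPM, and SLC18A3 lost its call without replicate 2. CHAT on odd against even days ran from -0.14 without replicate 3 (adjusted p = 0.7) to 0.14 without replicate 1 and passed in neither. The number of genes called on odd against even days, 1256, was 837 without a filter, 603 by limma on log2(TPM + 1) and 487 on log2(TPM + 0.1), and 170 to 851 without 1 replicate number. Calls over all day steps, 42693, were 21734 to 32761 without 1 replicate number, and those of the 4 genes, 25, were 12 to 22. For single genes, 13 values lost their call in at least 1 alternative, 28 losses in all, and 12 of the 13 were day steps. The highest day of ACHE was 12 by TPM and another by CPM. Replicate numbers did not pair the libraries: same-numbered libraries of different days had deviations correlated at -0.16 to 0.22, and 19 of 45 were nearest to their own number. With a replicate block, the day steps gave 26 calls for the 4 genes and 43047 in all, and the odd and even days 1333. Depth limits CHAT and SLC5A7 to a few counts per day before day 4.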
